A study of Mus musculus with 12 samples.

Results

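MHC class II antigen presentation was followed through 8 genes, namely the transactivator gene Ciita, the class II chain genes H2-Aa, H2-Ab1 and H2-Eb1, the invariant chain gene Cd74, the peptide loading genes H2-DMa and H2-DMb1, and the protease gene Ctss. Every probe set of the array that was annotated to a single one of these genes was taken, whatever its value. This gave 15 probe sets of 7 genes, out of 29409 probe sets, of which 24504 had a single gene and covered 13710 genes. H2-DMb1 had none of its own, because its 2 probe sets were shared with the neighbouring gene H2-DMb2.

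The arrays came from male wild-type FVB/N mice that received a torula yeast-based, selenium-deficient diet from weaning, at 3 weeks of age, and stayed on it for 6 weeks. The 0.1 Se mice had 0.1 ppm of selenium added as sodium selenite, and the 0 Se mice had none added. Total RNA of whole lung and whole liver was hybridised to Affymetrix arrays of the mouse genome, with 3 arrays of biological replicates in each of the 4 groups (0.1 Se lung, 0 Se lung, 0.1 Se liver and 0 Se liver). The labels do not say whether lung and liver came from the same mice. Because the tissues were studied whole, fewer cells of a type and less RNA per cell cannot be told apart in any value below.

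MHC class II molecules are pairs of an alpha and a beta chain that show peptides from engulfed proteins to CD4+ T cells. Dendritic cells, B cells and macrophages carry most of them, and in liver the Kupffer cells are the resident macrophages. The chains assemble around the invariant chain, which cathepsin S trims in the endosome before H2-DM exchanges its last fragment for a peptide. Transcription of the class II chain, invariant chain and H2-DM genes depends on CIITA, which does not bind DNA itself but is recruited by the RFX, CREB and NF-Y factors on the X and Y boxes of their promoters. Interferon-γ induces Ciita.

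The values are log2 of the MAS5 signal, an Affymetrix measure scaled for each array separately. A value of 6.64 (a signal of 100) was the lowest listed, and a blank stood in place of an absent call or a lower signal. Listed probe sets numbered 22197 to 22718 per lung array and 17235 to 17923 per liver array, and array medians were 8.96 to 9.00 in lung and 9.16 to 9.21 in liver. As a check of the tissue labels, 8 of 8 lung epithelium genes were listed on the 6 lung arrays and 6 of these 8 were blank on the 6 liver arrays. All 8 hepatocyte genes were listed on the 6 liver arrays. In lung, 4 of these 8 were blank on all 6 arrays and 3 were listed on all 6. The 4 hepatocyte genes tested between the tissues on 0.1 Se were lower in lung, with a median log2 difference of −7.38.

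The class II chain genes and the H2-DM genes lie together on chromosome 17, Ctss on chromosome 3 and Ciita on chromosome 16. RefSeq promoters from 250 bases before to 50 bases after the start site (mouse build GRCm38.p6) were read for H2-Aa, H2-Eb1, H2-DMa, H2-DMb1 and Ctss. Stretches of the promoters with a match are shown, because they hold letters of the X box, the Y box and related elements. A match is a description of the letters, and binding was not measured. The letters searched, on both strands, were TGATTGG for the Y box, AGNNACNGA for the X box and TGACGTCA for the cyclic AMP response element (CRE), and the core of the interferon-stimulated response element (ISRE), which was the match in Ctss. They were chosen after these promoters had been read. Capitals mark the X box and then the Y box in H2-Eb1 and H2-DMb1, the CRE and then the Y box in H2-Aa, and the ISRE core in Ctss.
H2-Eb1, chr17:34305767-34305847, plus strand: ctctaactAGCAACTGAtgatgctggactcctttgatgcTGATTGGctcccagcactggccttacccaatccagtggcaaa
H2-DMb1, chr17:34153091-34153171, plus strand: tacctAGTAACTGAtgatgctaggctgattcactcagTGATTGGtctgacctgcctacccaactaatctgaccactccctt
H2-Aa, chr17:34287843-34287923, minus strand: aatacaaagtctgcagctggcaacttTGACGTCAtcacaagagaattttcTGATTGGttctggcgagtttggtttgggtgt
Ctss, chr3:95526721-95526791, plus strand: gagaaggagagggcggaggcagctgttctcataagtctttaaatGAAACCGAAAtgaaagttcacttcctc

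The Y box began 61 bases before the start site in H2-Eb1, 63 bases before it in H2-DMb1 and 50 bases before it in H2-Aa. The X box began 92 bases before the start in H2-Eb1 and 95 bases before it in H2-DMb1, and the CRE of H2-Aa began 74 bases before its start. The ISRE core of Ctss began 21 bases before the start. Among 32851 mouse promoters of the same length, 7.82% held the Y box letters, 17.7% the X box letters, 1.79% the CRE and 3.44% the ISRE core. An X box with a Y box within 60 bases on the same strand stood in 46 promoters (0.14%). Neither of the 2 promoters of H2-DMa held any of these letters. The sequences are of the reference strain, and differences of FVB/N mice from them or from the probes were not examined.

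**Figure D1:**
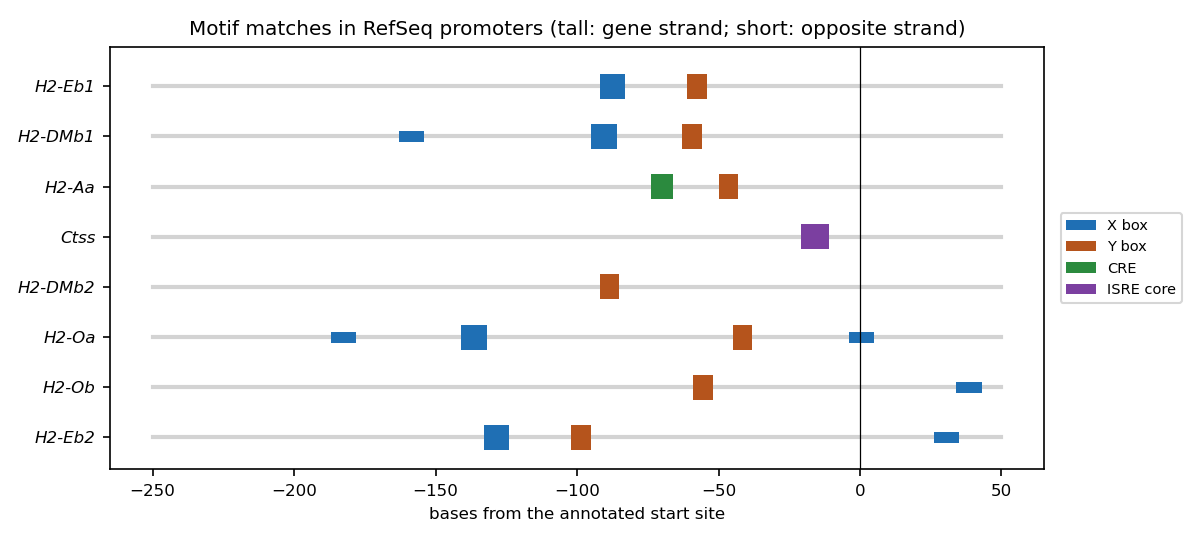
Positions of the motif letters in promoters of class II genes (x axis, bases from the annotated start site; rows, genes; tall bars, strand of the gene; short bars, opposite strand). In H2-Eb1 and H2-DMb1 the X box stood at 92 and 95 bases and the Y box at 61 and 63 bases before the start.

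In lung, every class II probe set that could be tested had a higher value on 0.1 Se than on 0 Se, but none passed adjustment over the whole array. The differences ran from 0.28 to 1.20 on the log2 scale, or 1.22- to 2.30-fold, and were widest for Ciita. They covered 12 of the 15 probe sets, of all 7 genes, with a median of 0.47, against −0.01 over the 21655 probe sets tested. The limma adjusted p-values lay between 0.0774 and 0.542, while 0.0924% of all probe sets tested passed the adjusted threshold of 0.05. At an unadjusted p under 0.05, 12 of 12 were higher on 0.1 Se, against 3.55% of all probe sets tested.

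Ciita, the transactivator of the class II genes, had log2 signals of 8.77, 8.56 and 8.50 in 0.1 Se lungs, against 7.84, 7.59 and 7.52 in 0 Se lungs. The lowest 0.1 Se lung lay above the highest 0 Se lung. The difference was 0.96 ± 0.16 (SE), or 1.94-fold, with a limma adjusted p of 0.0774. Another probe set of the gene, 1421211_a_at, read 9.12, 9.18 and 8.79 in 0.1 Se lungs and 8.34, 7.13 and 8.02 in 0 Se lungs, again without overlap. Its difference was 1.20 ± 0.27 (adjusted p = 0.218), and its lowest 0 Se value came from replicate 2. The probe set 1447075_at was listed on all 3 arrays of 0.1 Se lung, at 7.06, 7.56 and 6.88, and on a single array of 0 Se lung, at 7.04, so it was not tested.

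H2-Aa encodes the alpha chain of the I-A molecule. Its leading probe set, the one listed on most arrays at the highest level, read 14.33, 14.49 and 14.40 in 0.1 Se lungs, against 14.13, 14.03 and 14.19 in 0 Se lungs. The diets did not overlap, and the spread within each of them was small (SD 0.08 in both). The difference was 0.28 ± 0.11, or 1.22-fold, with an adjusted p of 0.542. Of its other probe sets, 1435290_x_at differed by 0.36 ± 0.10 (adjusted p = 0.370) and 1438858_x_at by 0.43 ± 0.13 (adjusted p = 0.406). The arrays of the last named met, at a lowest 0.1 Se value of 10.83 and a highest 0 Se value of 10.84. The probe set 1443783_x_at, listed between 7.20 and 7.47 in 0.1 Se lung and on a single 0 Se lung array at 7.34, was not tested.

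H2-Ab1, the beta chain partner of H2-Aa, read 12.75, 12.58 and 12.72 in 0.1 Se lungs and 12.45, 12.26 and 12.45 in 0 Se lungs with its leading probe set. These arrays did not overlap, and the difference was 0.29 ± 0.09, or 1.23-fold (adjusted p = 0.439). Its other probe sets differed by 0.62 ± 0.14 (1425477_x_at, adjusted p = 0.218) and 0.48 ± 0.14 (1451721_a_at, adjusted p = 0.380), also without overlap. The 3 probe sets of this gene therefore shared a direction and differed in size. Probe sets whose names end in _x_at or _s_at may also pick up transcripts of similar sequence, such as those of the other class II chains.

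H2-Eb1, the beta chain of the I-E molecule, stood lower in the range of the array. It read 8.56, 8.50 and 8.39 in 0.1 Se lungs, against 8.12, 7.94 and 8.08 in 0 Se lungs. All 3 arrays of 0.1 Se lung were above all 3 of 0 Se lung, and the difference was 0.44 ± 0.14, or 1.36-fold (adjusted p = 0.456).

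Cd74, the invariant chain, read 12.64, 11.89 and 12.25 in 0.1 Se lungs and 11.97, 11.45 and 11.56 in 0 Se lungs. Here the diets overlapped, since replicate 2 of 0.1 Se lung was below replicate 1 of 0 Se lung. The difference was 0.60 ± 0.18, or 1.52-fold (adjusted p = 0.410). It was 0.41 without replicate 1 of 0.1 Se lung.

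H2-DMa, the alpha chain of the peptide exchange factor H2-DM, read 10.53, 10.27 and 10.33 in 0.1 Se lungs, against 10.11, 9.77 and 9.87 in 0 Se lungs. The arrays did not overlap and the difference was 0.46 ± 0.12, or 1.38-fold (adjusted p = 0.306). A second, dim probe set of the gene (1459872_x_at) was listed on 2 arrays only, both of 0.1 Se lung, at 7.48 and 7.15. The probe sets shared by H2-DMb2 and H2-DMb1 differed by 0.11 ± 0.14 (1418638_at, adjusted p = 0.905) and 0.42 ± 0.16 (1449580_s_at, adjusted p = 0.561), and cannot be given to either gene.

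Ctss encodes cathepsin S, the protease that trims the invariant chain. It read 13.05, 12.45 and 12.68 in 0.1 Se lungs and 12.32, 12.13 and 12.21 in 0 Se lungs. The arrays did not overlap, with a difference of 0.51 ± 0.14, or 1.42-fold (adjusted p = 0.341), and 0.35 without replicate 1 of 0.1 Se lung.

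**Figure D2:**
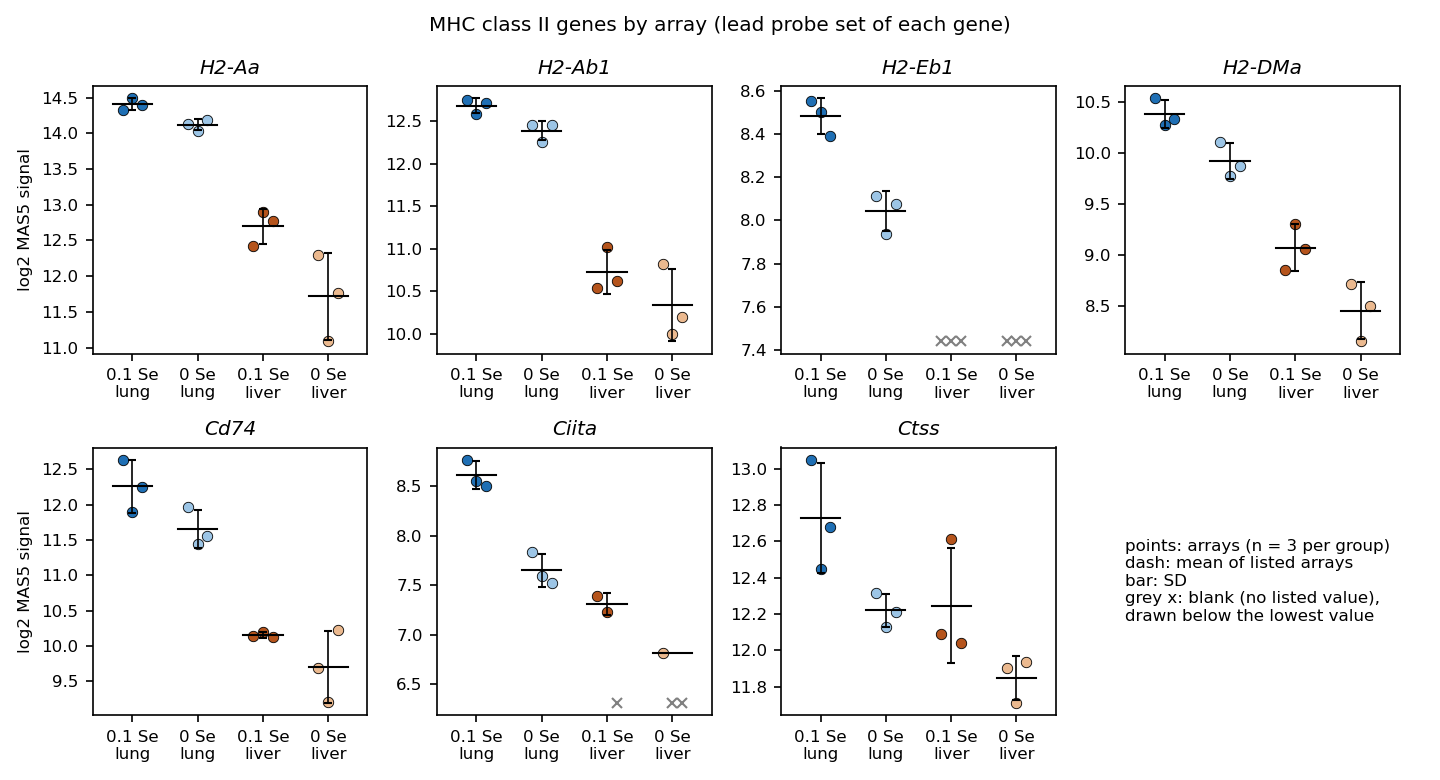
Log2 MAS5 signal (y axis) of the leading probe set of each class II gene in the 4 groups (points, arrays; dash, mean of the listed arrays; bar, SD; grey cross, blank). Means in lung were 8.61 ± 0.14 on 0.1 Se and 7.65 ± 0.17 on 0 Se for Ciita, and H2-Eb1 was blank on all 6 liver arrays.

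Over the 12 probe sets tested in lung, 10 had no overlap between the diets and were higher on 0.1 Se, against 6.07% of all probe sets with 3 values in each diet. The exceptions were Cd74 and the H2-Aa probe set 1438858_x_at. An exact two-sided permutation test of 3 against 3 arrays gave a p of 0.1 for each of the 10, which is the smallest that this design allows. When each lung array was left out in turn, 10 to 12 of the 12 stayed higher at an unadjusted p under 0.05, and all 12 stayed above 0. The count of 10 came without replicate 2 of 0 Se lung, where 2.76% of all probe sets were so. In a single fit of the 12 arrays the count was 9 of 12 (2.83% of all probe sets), without the leading probe sets of H2-Aa (unadjusted p = 0.196) and H2-Ab1 (unadjusted p = 0.106) and the H2-Aa probe set 1438858_x_at.

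In liver, the class II genes also had higher values on 0.1 Se in every tested probe set, with wider errors than in lung. The differences ran from 0.25 to 0.98, or 1.19- to 1.97-fold, over 9 of the 15 probe sets, of 5 genes. Their median was 0.62, against −0.00 over the 16575 probe sets tested. None passed adjustment (adjusted p from 0.492 to 0.916), while 0.0121% of all probe sets tested did. At an unadjusted p under 0.05, 6 of 9 were higher on 0.1 Se, against 2.94% of all probe sets tested.

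The leading probe set of H2-Aa read 12.42, 12.89 and 12.78 in 0.1 Se livers, against 12.29, 11.09 and 11.77 in 0 Se livers. The diets did not overlap, but the 0 Se livers were spread over more than 1 log2 unit, with replicate 2 the lowest. The difference was 0.98 ± 0.25, or 1.97-fold (adjusted p = 0.492), and ran from 0.67 to 1.27 when each array was left out in turn. The probe set 1435290_x_at differed by 0.74 ± 0.19 (adjusted p = 0.509). For 1438858_x_at, which was blank on an array of 0.1 Se liver, the value was 0.25 ± 0.32 (adjusted p = 0.916).

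The leading probe set of H2-Ab1 read 10.54, 11.02 and 10.62 in 0.1 Se livers and 10.82, 10.003 and 10.19 in 0 Se livers, so the diets overlapped. The difference of 0.39 ± 0.20, or 1.31-fold (adjusted p = 0.798), was 0.22 without replicate 2 of 0 Se liver and 0.24 without replicate 2 of 0.1 Se liver. The other probe sets of the gene did not overlap. They differed by 0.91 ± 0.27 (1425477_x_at, adjusted p = 0.594) and 0.71 ± 0.23 (1451721_a_at, adjusted p = 0.635).

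Cd74 read 10.15, 10.20 and 10.13 in 0.1 Se livers, against 9.68, 9.21 and 10.22 in 0 Se livers. The 0.1 Se livers lay within an SD of 0.04 while the 0 Se livers had an SD of 0.51, and the highest array of all was a 0 Se liver. The difference was 0.45 ± 0.21, or 1.37-fold (adjusted p = 0.766), and 0.21 without replicate 2 of 0 Se liver.

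H2-DMa read 8.85, 9.30 and 9.05 in 0.1 Se livers and 8.71, 8.15 and 8.49 in 0 Se livers, without overlap. The difference was 0.62 ± 0.19, or 1.53-fold (adjusted p = 0.613). Ctss read 12.09, 12.61 and 12.04 in 0.1 Se livers, against 11.90, 11.71 and 11.93 in 0 Se livers. These arrays did not overlap either, and the difference was 0.40 ± 0.15, or 1.32-fold (adjusted p = 0.668), and 0.22 without replicate 2 of 0.1 Se liver.

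Ciita was close to the floor of the measurement in liver. Its leading probe set was listed at 7.39 and 7.23 on 2 of the 3 arrays of 0.1 Se liver and at 6.81 on 1 of the 3 arrays of 0 Se liver, and its other probe sets were blank on all 6. H2-Eb1 was blank on all 6 liver arrays too. No liver difference was fitted for either gene.

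Of the 8 liver probe sets with 3 values in each diet, 6 had no overlap and were higher on 0.1 Se, against 4.99% of all such probe sets. The leading probe sets of H2-Ab1 and Cd74 were the ones that overlapped. Replicate 2 of 0 Se liver was the lowest 0 Se liver in each of the 5 leading probe sets, and replicate 2 of 0.1 Se liver was the highest 0.1 Se liver in each. Without replicate 2 of 0 Se liver, 8 of 9 probe sets were above 0, 5 had an unadjusted p under 0.05 (1.88% of all probe sets) and the median was 0.40.

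**Figure D3:**
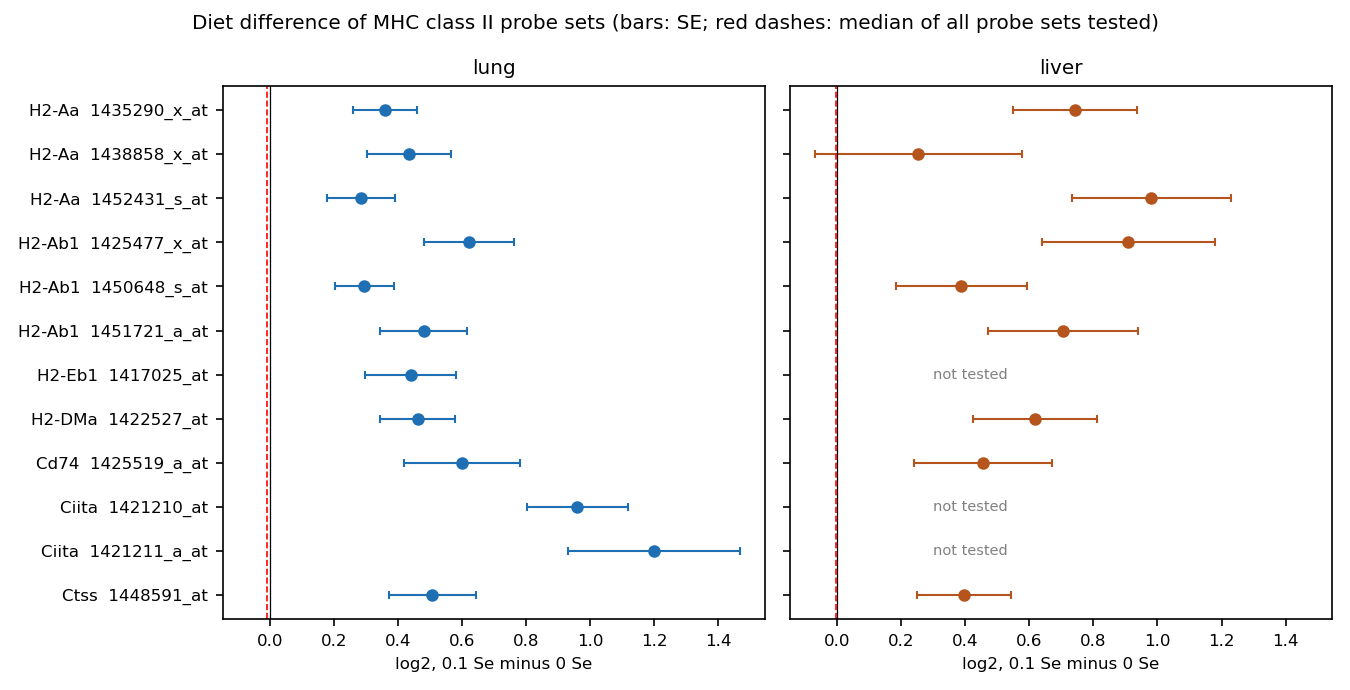
Log2 difference of 0.1 Se minus 0 Se (x axis) for each class II probe set tested in lung (left) and liver (right) (points, limma estimate; bars, SE; red dashes, median of all probe sets tested). All 12 lung values (0.28 to 1.20) and all 9 liver values (0.25 to 0.98) were above 0, and none had an adjusted p under 0.05.

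Whether the response to the diets differed between the tissues was tested directly, as the difference in lung minus that in liver over the 12 arrays. The 9 probe sets tested ran from −0.70 to 0.18, and their adjusted p-values were 0.760 or higher, with 0 of 15112 probe sets past limma's adjusted threshold in all (0%) and 931 at an unadjusted p under 0.05. The value of −0.70 ± 0.30 belonged to the leading probe set of H2-Aa (unadjusted p = 0.0343, adjusted p = 0.760), whose difference was 0.28 in lung and 0.98 in liver. It was −0.38 without replicate 2 of 0 Se liver. No other class II probe set had an unadjusted p under 0.05 in this test.

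The class II genes were higher in lung than in liver on both diets. On 0.1 Se, 10 of 10 probe sets tested (6 genes) were higher in lung past adjustment, by 0.48 to 2.10 or 1.39- to 4.29-fold, and 43.5% of the 15814 probe sets tested were so too. Their median was 1.44, against 0.20 over all. On 0 Se, 9 of 9 (5 genes) were higher in lung by 0.37 to 2.40, or 1.29- to 5.30-fold, beside 42.7% of 15922, with a median of 1.69 against 0.19. Quantile normalization or median centring moved the median of all probe sets up by a further 0.20 to 0.23, and each leading probe set of a class II gene stayed higher in lung under both.

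Among the leading probe sets, those of Cd74 and the I-A chains were furthest apart between the tissues. Cd74 was higher in 0.1 Se lung than in 0.1 Se liver by 2.10 ± 0.22 (adjusted p = 4.45e-07), H2-Ab1 by 1.96 ± 0.17 (adjusted p = 5.62e-08) and H2-Aa by 1.71 ± 0.21 (adjusted p = 2.74e-06). On 0 Se the differences of these leading probe sets were 1.95 ± 0.22 for Cd74, 2.05 ± 0.17 for H2-Ab1 and 2.40 ± 0.21 for H2-Aa. Other probe sets of H2-Ab1 differed less, by 1.40 (1425477_x_at) and 1.00 (1451721_a_at) on 0.1 Se and by 1.69 and 1.22 on 0 Se. H2-DMa was higher in lung by 1.31 ± 0.16 on 0.1 Se and 1.46 ± 0.16 on 0 Se. The lowest lung array of each of these leading probe sets lay above its highest liver array on both diets.

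Ciita was higher in 0.1 Se lung than in 0.1 Se liver by 1.30 ± 0.18 (adjusted p = 3.48e-05), from 2 listed liver arrays, and H2-Eb1 was listed on the 6 lung arrays and on no liver array. Ctss differed least as deposited, by 0.48 ± 0.16 on 0.1 Se (adjusted p = 0.0117) and 0.37 ± 0.16 on 0 Se (adjusted p = 0.0433). On 0.1 Se its arrays overlapped between the tissues, at 12.45 for the lowest lung and 12.61 for the highest liver. Its adjusted p was 0.0721 on 0.1 Se without replicate 1 of 0.1 Se lung and 0.0601 without replicate 3 of 0.1 Se liver, and from 0.0522 to 0.143 on 0 Se when any of the 0 Se arrays was left out. Under quantile normalization it was 1.18 on 0.1 Se (adjusted p = 1.51e-05) and 1.0022 on 0 Se (adjusted p = 7.76e-05).

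**Figure D4:**
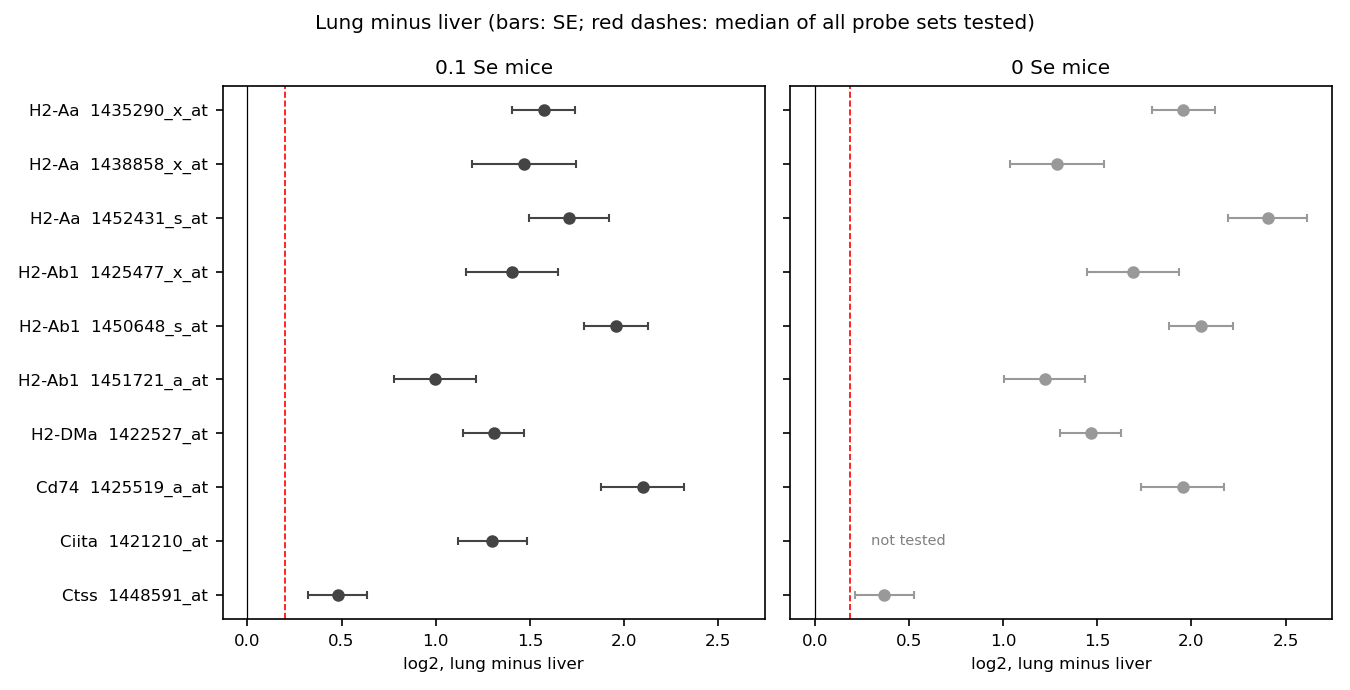
Log2 difference of lung minus liver (x axis) for each class II probe set tested in 0.1 Se mice (left) and 0 Se mice (right) (points, limma estimate; bars, SE; red dashes, median of all probe sets tested). Values ran from 0.48 to 2.10 on 0.1 Se and from 0.37 to 2.40 on 0 Se, with Ctss the smallest on both as deposited (1.18 and 1.0022 under quantile normalization).

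The class II genes varied together over the arrays of a tissue. For the 5 genes listed on all 12 arrays (H2-Aa, H2-Ab1, H2-DMa, Cd74 and Ctss), each value was set against the mean of its tissue, and Pearson's r of the 10 gene pairs ran from 0.58 to 0.89, with a median of 0.82. This is a description over 12 arrays that share 2 diets. The mean of the 5 genes lay at 0.38, 0.06 and 0.20 in 0.1 Se lungs, against −0.08, −0.35 and −0.22 in 0 Se lungs. In liver it lay at 0.11, 0.51 and 0.23 on 0.1 Se and −0.01, −0.66 and −0.17 on 0 Se. The diets did not overlap in either tissue. The linear signal was also summed over the class II genes listed on every array of a tissue, 7 in lung and 5 in liver. It was 40565 to 44568 in 0.1 Se lungs and 30255 to 34292 in 0 Se lungs. In liver it was 12921 to 17736 on 0.1 Se and 7429 to 11896 on 0 Se. The sums of the tissues cover different genes and weigh bright genes such as H2-Aa most.

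Outside the gene lists used here, 5 of the 7585 genes searched had a profile most like this mean over the 12 arrays. They were Aif1 (r = 0.945), a calcium-binding protein of macrophages, Psap (r = 0.943), the precursor of the lysosomal saposins, Fcgr1 (r = 0.896), the high-affinity IgG receptor, Apobec1 (r = 0.891), a cytidine deaminase that edits RNA, and Tyrobp (r = 0.886), a signalling adaptor of myeloid cells. Their own diet differences did not pass adjustment. Aif1 differed by 0.60 ± 0.20 in lung (adjusted p = 0.487) and 1.04 ± 0.29 in liver (adjusted p = 0.587), and Psap by 0.08 ± 0.09 and 0.11 ± 0.08 (adjusted p = 0.887 and 0.855).

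The X and Y box factors, taken with the acetyltransferase genes Crebbp, Ep300 and Kat2b, had medians close to those of the whole array. Of 10 such genes tested in lung, 4 were above 0 and 6 below, with a median of −0.01, and in liver 6 were above and 4 below, with a median of 0.06. None passed the test or had an unadjusted p under 0.05. Rfxap, a subunit of RFX, differed by −0.09 ± 0.16 in lung and 0.28 ± 0.16 in liver, and Crebbp, a histone acetyltransferase that works with CIITA, by 0.14 ± 0.12 and 0.19 ± 0.13. Ep300, a related acetyltransferase, differed by −0.12 ± 0.14 in lung, and the NF-Y subunits Nfyc in lung and Nfyb in liver by −0.10 ± 0.10 and −0.18 ± 0.10.

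Of 12 genes of interferon-γ signalling to Ciita, 8 were tested in each tissue and none passed. Their median was 0.11 in lung and 0.02 in liver, with 6 above 0 and 2 below in both. Irf1, the interferon regulatory factor that acts on a Ciita promoter, differed by 0.42 ± 0.11 in lung (adjusted p = 0.301) and by 0.43 ± 0.18 in liver (adjusted p = 0.732). Irf8, a factor of myeloid cells, differed by 0.47 ± 0.18 in liver (adjusted p = 0.668) and by 0.11 ± 0.10 in lung (adjusted p = 0.846). In liver Usf1 differed by −0.48 ± 0.37 (adjusted p = 0.859).

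The other genes of class II processing had medians close to those of the whole array. Of 18 genes, 16 were tested in lung, 9 above 0 and 7 below, with a median of 0.01, and 12 in liver, 9 above and 3 below, with a median of 0.04. None passed the test. At an unadjusted limma p under 0.05, 2 were higher on 0.1 Se in liver, Ifi30 and Cst3, against 2.94% of all probe sets tested. In lung 0 were so, against 3.55%. In lung Marchf1, a ubiquitin ligase that lowers class II at the cell surface, differed by 0.42 ± 0.20 (adjusted p = 0.686), and Lgmn, the lysosomal protease legumain, by −0.15 ± 0.10 (adjusted p = 0.788). In liver Ifi30, the lysosomal thiol reductase, differed by 0.34 ± 0.14 (adjusted p = 0.699) and Cst3, a cathepsin inhibitor, by 0.20 ± 0.09 (adjusted p = 0.735).

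Markers of the cells that carry class II were set beside these values, and their part in the differences was not tested. In liver, 13 of 13 macrophage and Kupffer cell genes tested, of 15, were above 0 on 0.1 Se, with a median of 0.35. At an unadjusted p under 0.05, 6 were higher, against 2.94% of all probe sets tested. The summed signal of the 13 genes was 29875 to 36635 in 0.1 Se livers and 22214 to 28503 in 0 Se livers, without overlap. Chil3 and Siglecf were blank on all 6. Marco, a scavenger receptor, differed by 0.90 ± 0.20 (adjusted p = 0.441), C1qc of complement by 0.61 ± 0.15 (adjusted p = 0.492) and Clec4f, a lectin of Kupffer cells, by 0.39 ± 0.10 (adjusted p = 0.486). In lung, 9 of 9 tested were above 0 with a median of 0.26, and 1 was higher at an unadjusted p under 0.05 (3.55% of all probe sets). The sums overlapped there, at 15837 to 26215 in 0.1 Se lungs and 14926 to 18424 in 0 Se lungs, and Clec4f and Cd5l were blank on all 6. Mertk, a receptor for the uptake of dying cells, differed by 0.48 ± 0.11 in lung (adjusted p = 0.247).

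B cell and dendritic cell markers stood otherwise in lung. All 7 B cell genes tested there, of 12, were below 0, with a median of −0.17 and none at an unadjusted p under 0.05. The summed signal of the 5 listed on all 6 lung arrays was 1979 to 2413 in 0.1 Se lungs and 1511 to 3576 in 0 Se lungs. Fcer2a, the low-affinity IgE receptor, differed by −0.59 ± 0.26 (adjusted p = 0.652), Fcmr, an IgM receptor, by −0.34 ± 0.20 (adjusted p = 0.766), Blnk, a signalling adaptor, by −0.17 ± 0.16 (adjusted p = 0.872) and Ms4a1, the B cell antigen CD20, by −0.25 ± 0.38 (adjusted p = 0.918). Of 10 dendritic cell genes tested, of 12, 5 were above 0 and 5 below, with a median of −0.00. The sums of the 8 listed on all 6 lung arrays were 4144 to 4491 in 0.1 Se lungs and 3800 to 4550 in 0 Se lungs. Mgl2, a lectin of dendritic cells and macrophages, differed by 0.59 ± 0.22 (adjusted p = 0.542). The 3 T cell genes tested in lung, of 8, had a median of 0.19. In liver a single B cell gene and 3 dendritic cell genes could be tested, and Flt3, Xcr1, Itgax and 5 other dendritic cell genes were blank on all 6 arrays.

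Over the 12 arrays, each set against its tissue mean, Pearson's r with the class II mean was 0.90 for the mean of 8 macrophage genes, 0.20 for the 1 B cell gene listed on all arrays (Bank1) and −0.13 for 2 dendritic cell genes. For the 10 genes of the X and Y box factors and the acetyltransferases listed with them it was 0.59. These values describe arrays that share 2 diets, and the B cell and dendritic cell values rest on few genes.

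**Figure D5:**
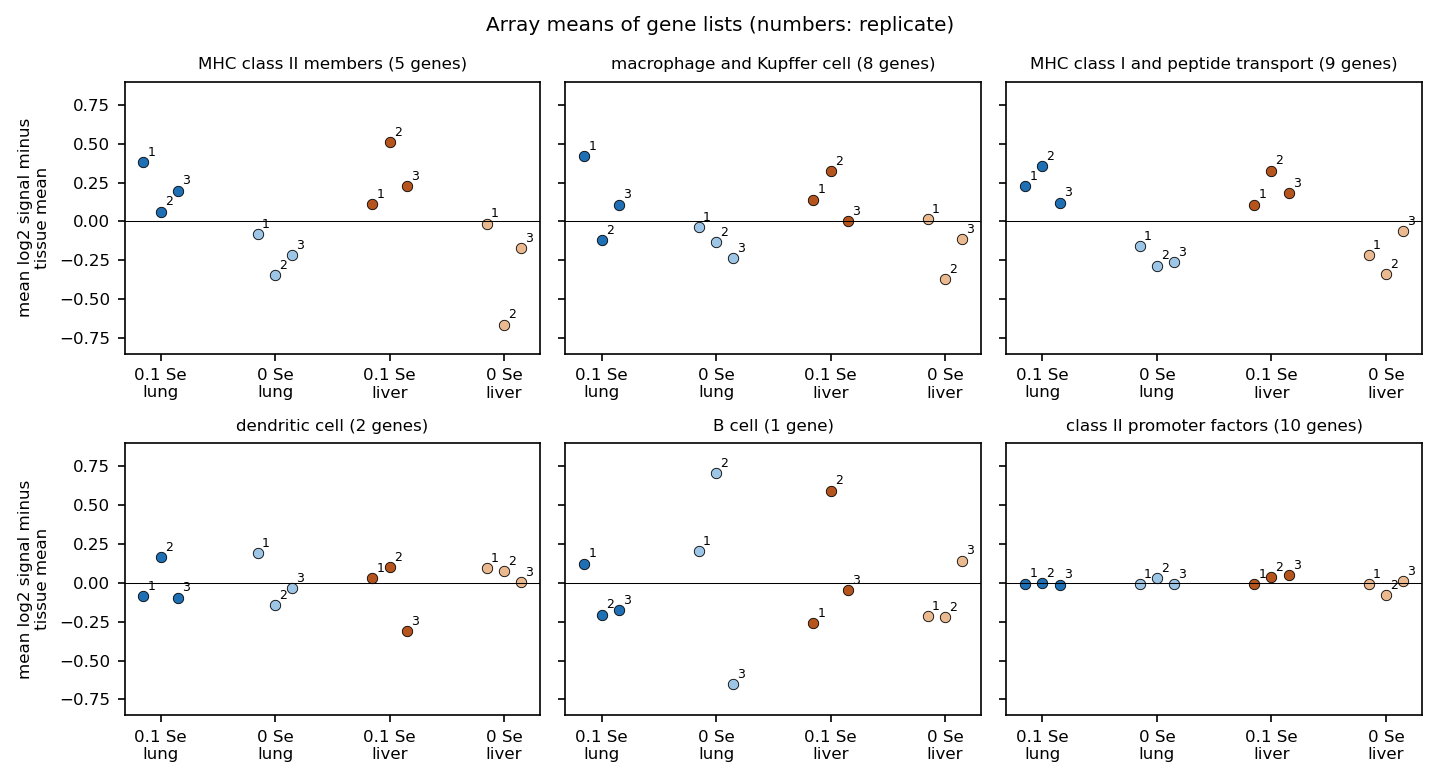
Mean log2 signal minus the tissue mean (y axis) of 6 gene lists on each array, in the 4 groups (points, arrays; small numbers, replicate). The class II genes and the macrophage genes stood lowest in replicate 2 of 0 Se liver, at −0.66 and −0.37.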

How the data were processed

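Total RNA of lung and liver had been labelled with biotin for the arrays, and 12 arrays were grouped by the diet and tissue in their labels, with 0 columns left without a sample. The authors computed MAS5 signals for each array, excluded absent calls and deposited log2 values of 29467 probe sets, with blanks for the rest; R 2.15.2 and affy 1.36.0 are named in the submitters' processing notes. The values were used as deposited, 58 control probe sets were left out, and blanks stayed missing. Gene names came from the platform's annotation, in which 24504 probe sets had 1 gene (24434 of them matched to RefSeq by Entrez number), 660 several and 4245 none. Promoters were those of RefSeq on GRCm38.p6.

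A probe set was tested with at least 2 listed values in each group compared. limma 3.58.1 in R 4.3.3 (lmFit, and eBayes with a trend) was fitted on the whole table, within a tissue for the diets and over the 12 arrays for the tissues and for the difference of differences, with Benjamini-Hochberg adjustment over all probe sets tested and a threshold of 0.05. The scripts were tested on simulated data. Tables and plots used Python 3.11.15 with pandas 2.3.3, numpy 2.4.6 and matplotlib 3.10.9. Groups of 3 arrays limit the precision: an exact two-sided test of 3 against 3 cannot go below a p of 0.1.

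The genes and lists were chosen with earlier results of these data known. All members were named with every probe set of their own, from each list up to 4 genes with the smallest p in a tissue, and 5 genes by likeness. The leading probe set of a gene was the one listed on the most arrays, then the one with the highest mean. The alternatives were other filters on blanks and low values, blanks at the lowest value, quantile or median scaling, 32 added to the signal before log2, eBayes without a trend or robust, weights for arrays, a block of replicate numbers, a single fit of the 12 arrays for the diets, the methods' t-test, a gene's other probe sets, and fits without each array.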

Additional observations from a re-analysis of the deposited data

How the results depend on the processing

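In lung, where no class II probe set passed limma's adjusted threshold, array weights gave a count of 1, Ciita at 0.92 (adjusted p = 0.0346), with 54 calls over all probe sets (0.249%) in place of 20. The methods' t-test gave 9 higher at its unadjusted threshold (3.11% of all probe sets), and 0 after Benjamini-Hochberg adjustment. In liver that t-test gave 1 unadjusted (2.61% of all) and 0 adjusted. The count was 0 in both tissues, and 0 for the difference between tissues, under all other alternatives but the block below. Leaving out each array gave 0 to 0 for these counts. On 0.1 Se it gave 8 to 10 probe sets higher in lung, of 8 to 10 that could be tested, and on 0 Se 8 of 9 each time. With all arrays, 43.5% of all probe sets tested were higher in lung on 0.1 Se and 42.7% on 0 Se. The 425 alternative values of single class II genes were for leading probe sets, and other probe sets entered with their main fit only. Of these values, 412 kept their direction and their side of the threshold, and 0 turned direction. The threshold was passed by 2 (Ciita above, Cd74 below) and lost by 11, all of Ctss between the tissues (adjusted p from 0.0522 to 0.143). Over every class II probe set tested in liver, 8 of 9 stayed above 0 without replicate 2 of 0 Se liver. Quantile normalization gave 8432 probe sets higher and 3621 lower in lung on 0.1 Se, against 6878 and 4730 as deposited, and 8417 and 3686 on 0 Se, against 6805 and 4793.

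When replicate numbers entered the fit as a block, 2 class II probe sets passed in lung, Cd74 at 0.60 (adjusted p = 0.0424) and H2-Ab1 1425477_x_at (adjusted p = 0.0283), with 56 calls over all probe sets (0.262%). The labels do not say that the numbers pair the arrays. Arrays with the same number in both diets had correlations of −0.19 to 0.15 in their deviations from the group means, against −0.22 to 0.25 for different numbers. Between tissues the correlations were −0.04 to 0.11 for the same number, against −0.09 to 0.04 for different numbers. Such values cannot tell whether a number stands for the same mouse in lung and liver. The alternatives for the H2-Aa difference between tissues (−0.99 to −0.38) and the leave-one-out counts at an unadjusted p were chosen after seeing the data. Blanks limit what can be said of Ciita and H2-Eb1 in liver, since they mark only signals that were absent or under the floor.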

Other observations

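The MHC class I genes, which load peptides made in the cytosol, also had higher values on 0.1 Se. All 10 tested, of 11, were above 0 in both tissues, with a median of 0.48 in lung and 0.31 in liver, and none passed adjustment. At an unadjusted p under 0.05, 7 were higher in lung and 6 in liver, against 3.55% and 2.94% of all probe sets tested. In lung H2-M3, a class I molecule that binds N-formyl peptides, differed by 0.72 ± 0.11 (adjusted p = 0.0642). Nlrc5, the class I transactivator and a relative of CIITA, differed by 1.00 ± 0.16 (adjusted p = 0.0747), Tap1, a subunit of the peptide transporter, by 0.95 ± 0.18 (adjusted p = 0.118) and Psmb9, a subunit of the immunoproteasome, by 0.79 ± 0.14 (adjusted p = 0.0903) in lung. Psmb9 differed by 0.81 ± 0.16 in liver (adjusted p = 0.379). Over the 12 arrays, each set against its tissue mean, the mean of 9 class I genes had a Pearson's r of 0.85 with the class II mean, as a description of arrays that share 2 diets.

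Of 10 co-stimulation genes of antigen-presenting cells, 6 were tested in lung, with a median of 0.22. Cd274, the inhibitory ligand PD-L1, rose by 1.32 ± 0.16 in 0.1 Se lung (adjusted p = 0.0259). Under 18 alternatives, chosen after seeing the data, it stayed between 1.20 and 1.49, and 6 of them did not pass (adjusted p from 0.0852 to 0.653), among them the fits without replicate 2 of 0.1 Se lung, replicate 2 of 0 Se lung and replicate 3 of 0 Se lung (adjusted p = 0.121, 0.137 and 0.0852). Il15, a cytokine for T cells and natural killer cells, differed by 0.47 ± 0.17 in lung (adjusted p = 0.538). Cd86, a ligand of CD28, differed by 0.43 ± 0.19 (adjusted p = 0.640) and Cd83, a marker of mature dendritic cells, by −0.24 ± 0.13 (adjusted p = 0.748).

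Between the tissues, 8 macrophage and Kupffer cell genes were tested on 0.1 Se, of which 2 were higher and 5 lower in lung past adjustment. Their median was −0.92, where the leading probe sets of 6 class II genes had a median of 1.51. Of 3 dendritic cell genes tested, 2 were higher and 0 lower in lung, with a median of 1.28, and of 2 B cell genes 1 was higher and 0 lower. Of all probe sets tested, 43.5% were higher. Genes blank in liver, such as Chil3 and Siglecf, could not be tested, and the part of these cells in the tissue differences was not tested. The X or Y box letters were also in the promoters of H2-Oa, H2-Ob, H2-Eb2 and H2-DMb2, relatives of the members.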
